A study of Mus musculus with 9 samples.

Results

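The 9 genes described here belong to the CC chemokine system that attracts monocytes and eosinophils, and were measured by RNA-seq in the back skin of mice with DNCB-induced dermatitis. They are the ligands Ccl2, Ccl7, Ccl8, Ccl12, Ccl11 and Ccl24 and the receptors Ccr1, Ccr2 and Ccr3, taken by gene name from the table of expression values and joined to the read counts by gene identifier. All 9 were among the 34637 genes of the expression table and the 55401 genes of the count table, and all 9 passed the filter on low counts that left 20817 genes for testing. The rule takes the genes by name and uses no threshold on their values, and the names were picked with earlier results of these data known.

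Every mouse was a C57BL/6 male aged 6 to 8 weeks whose shaved back was sensitised with 1% DNCB, a small reactive molecule that raises a contact allergy, on day 1 and painted again with 0.5% DNCB from day 4 to day 21. The Model group was given water, and the FJDHF group was fed Fangji Dihuang formulation, a herbal decoction, daily after day 7 until day 28. DNCB was therefore common to all libraries, and normal skin was not analysed here, so no level below can be set against that of untreated skin. Back skin is a mixture of tissues, in which fewer cells of a type and less RNA per cell cannot be told apart.

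The tables name their 9 columns only by codes. MR1, MR3, MR3_4, MR4_5 and MR5 were taken as the FJDHF group (n = 5) and MXL1, MXL12, MXL3_4 and MXL_3 as the Model group (n = 4), because the groups have these sizes and MX abbreviates the Chinese for model. The columns could not be tied to individual mice, whether codes such as MR3_4 or MXL12 stand for pooled RNA was not checked, and every direction given here rests on this assignment. The p-values therefore measure the spread between these libraries. Total counts were 74648669 to 79474215 per library, and the 9 genes had between 119 and 15022 counts in a library, so each was above the floor of 3 counts, or 0.0375 to 0.0415 CPM, in every library. CPM are counts per library size after TMM scaling, and these limits cover counting error only.

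CC chemokines are small secreted proteins with a pair of adjacent cysteines near the start of the mature chain, and they steer white blood cells through receptors of the G protein-coupled family. Ccl2, Ccl7 and Ccl12 act mainly through Ccr2, the receptor that brings inflammatory monocytes from marrow and blood into tissue. Ccl11 and Ccl24 are eotaxins, which act through Ccr3, the main chemokine receptor of eosinophils, and Ccr1 is a receptor of monocytes and neutrophils that binds several of the inflammatory CC chemokines. In allergic skin disease these ligands are known as products of macrophages, fibroblasts and endothelial cells.

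The sequence that gives the family its name is shown for the 6 ligands, because it is the feature they share apart from their target cells. Each line is 30 bases of coding sequence from the GENCODE M21 transcripts, 5′ to 3′ on the coding strand, with the codons of the adjacent cysteines in capitals.
Ccl2: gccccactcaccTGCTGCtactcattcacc
Ccl7: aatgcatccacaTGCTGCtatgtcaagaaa
Ccl8: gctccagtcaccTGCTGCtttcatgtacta
Ccl12: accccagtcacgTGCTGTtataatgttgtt
Ccl11: atcccaacttccTGCTGCtttatcatgacc
Ccl24: atcccctcatctTGCTGCacgtcctttatt
All 6 stretches lie in exon 2 of 3 of their genes, at chr11:82036494-82036523 for Ccl2, chr11:82046526-82046555 for Ccl7, chr11:82116044-82116073 for Ccl8, chr11:82102622-82102651 for Ccl12 and chr11:82061684-82061713 for Ccl11 on the plus strand, and at chr5:135572653-135572682 on the minus strand for Ccl24 (GRCm38). Only Ccl12 used a TGT codon in this pair, and the paired codons began at codon 32 to 34 in the 6 genes. The coding sequence of Ccl24 held a further adjacent pair at codon 19.

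The 5 chromosome 11 ligands formed a cluster of 81229 bases (chr11:82035571-82116799), in the order Ccl2, Ccl7, Ccl11, Ccl12 and Ccl8, all on the plus strand. Ccl24 lay apart at chr5:135569937-135573049 on the minus strand. The receptors lay together on chromosome 9 within 151434 bases, with Ccr1 at chr9:123962124-123968692 on the minus strand, Ccr3 at chr9:124021972-124031689 and Ccr2 at chr9:124101950-124113557 on the plus strand. Between the coding sequences of the ligands, identity ranged from 60.3% for Ccl11 and Ccl24 to 73.3% for Ccl2 and Ccl8. Despite this likeness, in its longest coding transcript none of the 6 ligands shared a stretch of 50 bases with a transcript of any other gene, and the same held for Ccr1 and Ccr3. Ccl2 lies inside Gm17268 on the opposite strand, which shared 0 exon bases with it and had 0 counts in every library.

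Promoters, taken as 250 bases before to 50 bases after a gene's start in RefSeq, of Ccl8, Ccl12, Ccr1, Ccr2 and Ccr3 were read from RefSeq (GRCm38.p6). For Ccr2 this window was chr9:124101933-124102232, and the gene as placed above begins at 124101950. Most of the Ccr2 window thus lies inside that gene, and little of the sequence before its start was searched. Among 7 motifs searched on both strands, the TATA box letters TATAAA were found in the promoters of Ccl12 and Ccl8 and of no receptor, and they were held by 13.6% of 32851 promoters of the same length. They began 31 and 32 bases before the start, at nearly the same distance in these neighbouring ligand genes, and are shown in capitals within 30 bases at chr11:82101802-82101831 and chr11:82115141-82115170.
Ccl12: ctctttgtgtctTATAAAagtcagatggaa
Ccl8: ttccctgctcccTATAAAaggcagattaga
The GATA letters TGATAA, the C/EBP letters TTGCGCAA, the PU.1 letters GAGGAAGT and the STAT letters TTCNNNGAA had no match in the 5 windows, and were held by 9.05%, 0.183%, 3.2% and 8.3% of all promoters. The AP-1 letters TGANTCA, held by 7.81% of promoters, were found in that of Ccr3, and the looser C/EBP letters TTNNGNAA, which take in TTGCGCAA, in Ccr1, Ccr2 and Ccr3 and in 40.7% of all promoters. A match in these letters is a description and not a binding site.

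Between genes, levels can be set side by side only per length, and this was done in FPKM, the authors' counts scaled for gene length and depth. The order of the median FPKM over 9 libraries was Ccl8 (178), Ccl11 (47.5), Ccr2 (16.4), Ccl7 (14.2), Ccr1 (8.41), Ccl12 (5.48), Ccl2 (5.00), Ccl24 (2.03) and Ccr3 (1.37). Ccl8 was above Ccl11 in 9 of 9 libraries, and its lowest value of 132 FPKM exceeded the highest Ccl11 value of 87.2 FPKM. Neighbours further down the order were not as clearly set apart. Ccr2 was above Ccl7 in 6 of 9 libraries and Ccl12 above Ccl2 in 5 of 9, with a mean log2 ratio of Ccl12 to Ccl2 in FPKM of -0.01 ± 0.39 (SD, n = 9). The remaining neighbours kept their order in 8 of 9 libraries, and the ranges of each of these pairs overlapped. The order also depends on the length used, since FPKM matched the length of all exons of a gene together. That was 1138 bases for Ccl2, whose only coding transcript has 813, and 6760 for Ccr2, whose longest coding transcript has 5728. Over the shorter lengths Ccl2 and Ccr2 would be higher, so the place of Ccl2 beside Ccl12 is not settled.

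Ccl8 made up most of the ligand transcripts in every library. The FPKM of the 6 ligands summed to between 168 in MR4_5 and 448 in MR1, and the Ccl8 share of this sum was 60.1% in MXL_3 to 82.0% in MR1. Ccl11 held 8.96% in MR4_5 to 29.4% in MXL_3, and Ccl7 3.22% in MXL3_4 to 7.69% in MXL12. Ccl2 held 1.09% to 2.60%, Ccl12 1.25% to 3.12% and Ccl24 0.554% to 2.23%. In FPKM the ratio of Ccl8 to Ccl11 ran from 2.04 in MXL_3 to 8.78 in MR4_5, with medians of 4.99 in the FJDHF group and 3.73 in the Model group (two-sided exact permutation test of the log2 ratio, p = 0.198).

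**Figure D1:**
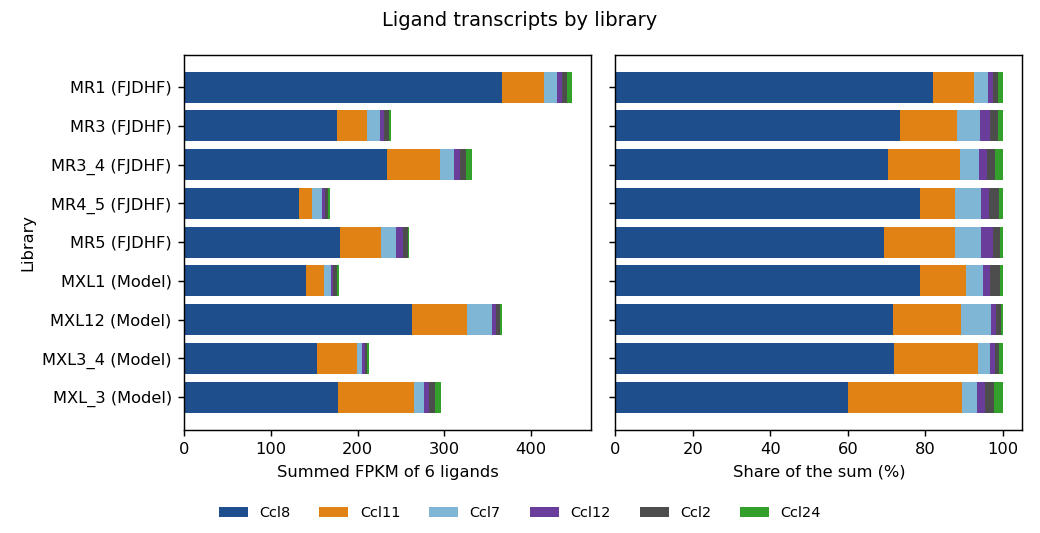
Summed FPKM of the 6 ligands (left) and the share of each ligand in that sum in percent (right), 1 bar for each of the 9 libraries. Ccl8 fills 60.1% to 82.0% of every bar, and the Ccl11 share is highest in MXL_3 at 29.4%.

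The main comparison asked whether the chemokine genes differed between skin of FJDHF-treated and Model mice. No difference passed the test for any of the 9 genes. In the quasi-likelihood test of edgeR, adjusted by Benjamini and Hochberg's method over 20817 genes, 0 of 9 were called at an adjusted p under 0.05 and at least a 2-fold change, against 0.0% of all genes, and the adjusted p of each of the 9 was 1.0. At an unadjusted p under 0.05, 0 of 9 genes passed, beside 326 of all 20817 genes (1.57%). DESeq2's Wald test called 2 genes and limma on log2(FPKM + 1) called 0, none of the 9 among them. No member had groups that did not overlap in CPM, which was the case for 0.514% of all genes. By direction alone, 6 of 9 were higher in the FJDHF group (Ccl2, Ccl7, Ccl8, Ccl12, Ccl24 and Ccr3) and 3 lower (Ccl11, Ccr1 and Ccr2), with a median log2 fold change of 0.17, beside -0.03 over all genes, of which 44.1% were higher.

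The spread between libraries was wide in these genes. The highest CPM over the lowest among the 9 libraries was 3.78-fold in the median of the 9 genes, and 2.25-fold in the median of tested genes with a mean of at least 1 CPM. The median SE of the log2 fold change was 0.392 for the 9 genes and 0.341 for all tested genes. Below, CPM are given in the order MR1, MR3, MR3_4, MR4_5 and MR5 for the FJDHF group and MXL1, MXL12, MXL3_4 and MXL_3 for the Model group, log2 fold changes are FJDHF against Model from edgeR, and each permutation p is from a two-sided exact test of the mean log2(CPM + 0.5) over every assignment of 5 of the 9 libraries, whose smallest possible value is 0.00794. These 9 permutation tests were not adjusted.

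**Figure D2:**
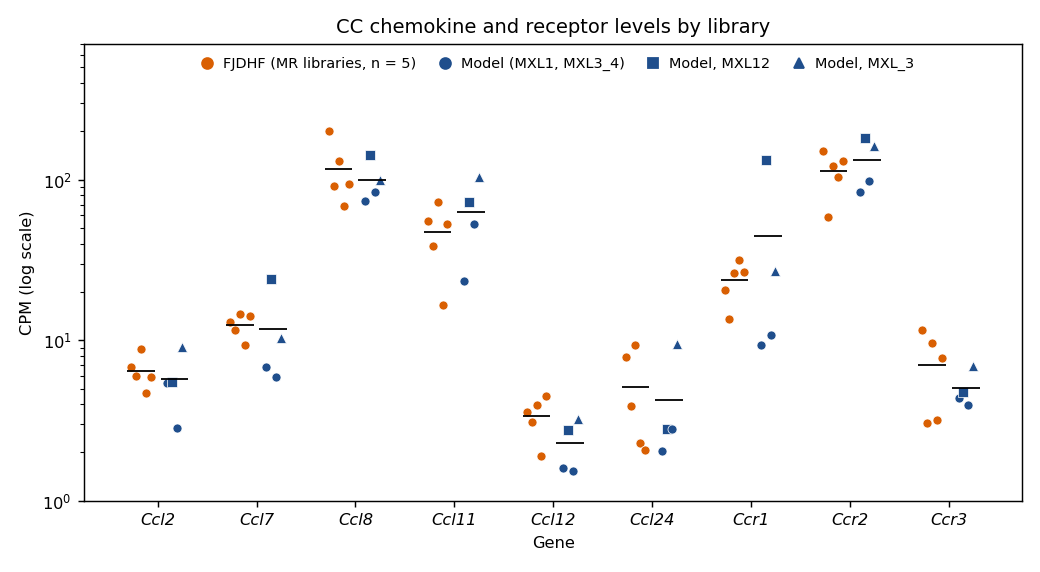
CPM of the 9 genes on a log axis, with 1 point per library for the FJDHF group (n = 5) and the Model group (n = 4), and a line at each group's mean. The groups overlap for every gene, and MXL12 stands above the other 8 libraries for Ccl7 (23.9 CPM) and Ccr1 (132 CPM).

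Among the monocyte ligands, Ccl2, the prototype monocyte attractant, was measured at 6.83, 5.95, 8.76, 4.67 and 5.86 CPM in the FJDHF group. The Model libraries had 5.44, 5.51, 2.85 and 9.01 CPM. The highest and the lowest library both belonged to the Model group, so the 5 FJDHF values lay inside the Model range. The means were 6.42 ± 1.52 (SD, n = 5) and 5.70 ± 2.53 CPM (SD, n = 4). Against the Model group the log2 fold change was 0.17 (SE 0.331, unadjusted p = 0.618), with a 95% interval of 0.676-fold to 1.87-fold, and the exact permutation p was 0.492. Without MXL3_4, the lowest library, it was -0.05.

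Ccl7, a ligand of Ccr2, Ccr1 and Ccr3 also called MCP-3, had 12.9, 11.5, 14.6, 9.38 and 14.2 CPM in the FJDHF group. In the Model group it had 6.78, 23.9, 5.88 and 10.3 CPM. MXL12 was 1.63 times the next library, while the other 3 Model libraries were at or below 10.3 CPM, within or under the low end of the FJDHF range. The log2 fold change over 9 libraries was 0.10 (SE 0.392, unadjusted p = 0.805, exact permutation p = 0.476), an interval of 0.586-fold to 1.96-fold. Without MXL12 it was 0.71 with an unadjusted p of 0.0242 and an adjusted p of 1.0 in edgeR (exact permutation p = 0.0357), and this was the only member and the only left-out library that gave an unadjusted p under 0.05 in edgeR. It was -0.09 without MXL1 and -0.12 without MXL3_4, so the sign of this small difference turned with single Model libraries.

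Ccl8, or MCP-2, the most abundant of the 6 ligands in FPKM, had 200, 91.3, 131, 68.4 and 94.5 CPM in the FJDHF group. The Model values were 73.6, 142, 83.8 and 99.9 CPM. Both the highest library, MR1, and the lowest, MR4_5, were in the FJDHF group, with the 4 Model libraries between them. Its log2 fold change was 0.23 (SE 0.314, unadjusted p = 0.484, exact permutation p = 0.651), with an interval of 0.722-fold to 1.90-fold. Without MR1 the value was -0.06.

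Ccl12, or MCP-5, a mouse ligand of Ccr2, had 3.55, 3.09, 3.93, 1.91 and 4.47 CPM in the FJDHF group and 1.59, 2.77, 1.54 and 3.25 CPM in the Model group. MR1, MR3_4 and MR5 were above all 4 Model libraries, and MR3 and MR4_5 were within the Model range. This gene had the smallest p of the 9, at a log2 fold change of 0.57 (SE 0.344, unadjusted p = 0.128, exact permutation p = 0.135). In fold terms it was 1.48 with an interval of 0.874 to 2.51, and its p ranked 939 among the 20817 genes. The log2 fold change stayed between 0.42 and 0.79 with each library left out in turn. On the level scale, means were 3.39 ± 0.969 CPM (SD, n = 5) and 2.29 ± 0.857 CPM (SD, n = 4).

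The eosinophil ligand Ccl11, or eotaxin-1, which fibroblasts of the dermis are known to make, had 55.2, 38.7, 72.4, 16.5 and 52.8 CPM in the FJDHF group. Model libraries had 23.3, 73.0, 53.3 and 104 CPM. MXL_3 was the highest and MR4_5 the lowest, and the groups overlapped over most of their range. Its log2 fold change was -0.43 (SE 0.456, unadjusted p = 0.372, exact permutation p = 0.508), with an interval of 0.369-fold to 1.5-fold. Without MXL_3 it was -0.08.

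Ccl24, or eotaxin-2, known from macrophages, fell into low and high libraries in both groups. The FJDHF values were 7.90, 3.89, 9.30, 2.29 and 2.08 CPM and the Model values 2.05, 2.78, 2.81 and 9.41 CPM. MR1, MR3_4 and MXL_3 were between 7.90 and 9.41 CPM and the other 6 libraries at or under 3.89 CPM. From counts, the log2 fold change was 0.26 (SE 0.590, unadjusted p = 0.673, exact permutation p = 0.746), with an interval of 0.482-fold to 2.96-fold. It was 1.00 without MXL_3 and -0.08 without MR3_4. In FPKM, the ratio of Ccl11 to Ccl24 ran from 8.37 in MR1 to 31.5 in MXL12, with medians of 9.31 in the FJDHF group and 18.2 in the Model group (exact permutation p = 0.183).

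Of the receptors, Ccr1 had the widest range of the 9 genes. It was measured at 20.6, 13.5, 26.1, 31.5 and 26.5 CPM in the FJDHF group and at 9.34, 132, 10.8 and 27.0 CPM in the Model group. MXL12 was 4.20 times the next library and 14.2 times the lowest, MXL1, and without it the Model values were 9.34 to 27.0 CPM. The log2 fold change from counts was -0.92 (SE 0.698, unadjusted p = 0.214), an interval of 0.180-fold to 1.54-fold. On mean log2(CPM + 0.5) the difference was only -0.12 (exact permutation p = 0.944), and without MXL12 the edgeR log2 fold change turned to 0.59. The direction of Ccr1 thus depended on this library.

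Ccr2, the monocyte receptor, was the most abundant receptor per length. Levels were 150, 58.7, 121, 104 and 130 CPM in the FJDHF group and 83.4, 181, 98.1 and 163 CPM in the Model group. MXL12 and MXL_3 were the highest libraries and MR3 the lowest, with the other 6 libraries between 83.4 and 150 CPM. Its log2 fold change was -0.22 (SE 0.305, unadjusted p = 0.486, exact permutation p = 0.571), with an interval of 0.537-fold to 1.37-fold. It was -0.03 without MXL12 and -0.08 without MR3.

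Ccr3, the eotaxin receptor, was the least abundant per length. It had 11.6, 3.07, 9.65, 3.17 and 7.76 CPM in the FJDHF group, and 4.38, 4.74, 3.96 and 6.95 CPM in the Model group. The FJDHF libraries lay on both sides of the Model group, MR1, MR3_4 and MR5 above all 4 Model libraries and MR3 and MR4_5 below all 4. The log2 fold change was 0.49 (SE 0.428, unadjusted p = 0.275, exact permutation p = 0.508), with an interval of 0.729-fold to 2.72-fold. Its value was 0.23 without MR1 and 0.69 without MXL_3.

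**Figure D3:**
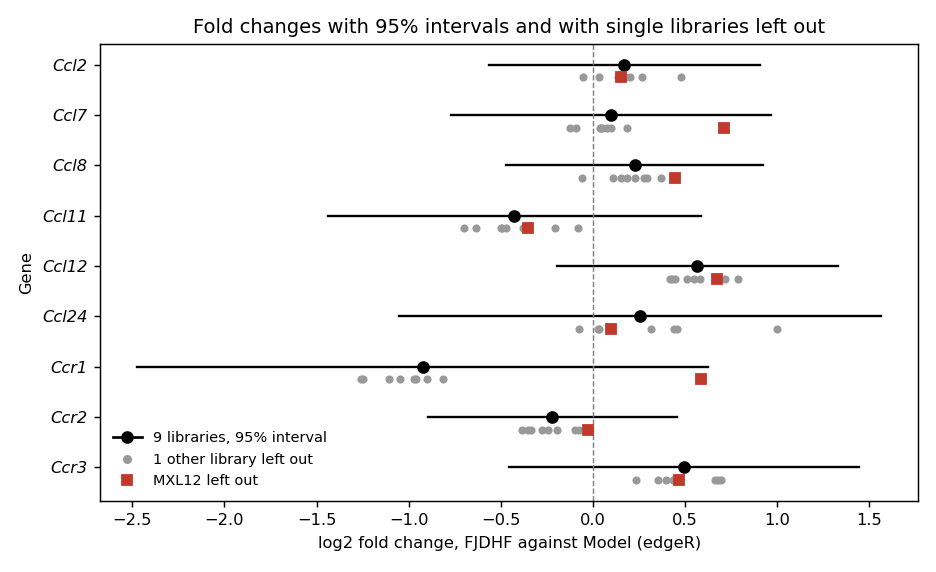
log2 fold change of each gene in the FJDHF group against the Model group from edgeR, with its 95% interval (black, 9 libraries) and the values with 1 library left out (grey, and red for MXL12). Every interval includes 0, and leaving out MXL12 moves Ccr1 from -0.92 to 0.59 and Ccl7 from 0.10 to 0.71.

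MXL12 was the highest of the 9 libraries for Ccl7, Ccr1 and Ccr2, that is 3 of 9 genes, where 14.5% of all tested genes had their highest value in this library. For Ccl2, Ccl8, Ccl11, Ccl12, Ccl24 and Ccr3 other libraries were both higher and lower. In FPKM its Ccl7 to Ccl2 ratio was 6.17, against 1.63 to 3.46 in the other 8 libraries, and its Ccr1 to Ccr2 ratio was 1.74, against 0.264 to 0.721. Of the 12 neutrophil markers, 9 were also highest in MXL12 and 3 (Ngp, Camp and Ltf) in MXL_3. Their summed level was 767 CPM in MXL12, of which S100a9 gave 256 CPM, against 70.7 to 184 CPM in the other libraries. Il1b, the alarm cytokine interleukin-1 beta, was at 660 CPM in MXL12 and at 50.2 CPM or less in the FJDHF group. Its group medians were 8.23 CPM (FJDHF) and 4.77 CPM (Model), with an exact permutation p of 0.865. The part of these markers in the Ccl7 and Ccr1 values was not tested. With MXL12 left out, 7 of the 9 genes were higher in the FJDHF group, with a median log2 fold change of 0.45. Of all 21332 genes tested without it, 9614 were higher, with a median of -0.03. With MXL_3 left out instead, 6 of the 9 genes were higher, with a median of 0.23.

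Over the 9 libraries, the genes tended to vary in the same direction, though some pairs with Ccr1 did not without the libraries farthest out. Pearson correlations of log2(CPM + 0.5) were above 0 for all 36 pairs, with a median of 0.583, and 6 pairs reached 0.7. These are descriptions over 9 libraries that share depth and tissue makeup, and no test was made of them. The share of pairs above 0 among all tested genes is not given here. Ccl7 and Ccr1 had the highest value (r = 0.844, Spearman's rho = 0.55), which was 0.565 without MXL12 and MXL3_4, the libraries farthest out in Ccl7. Ccl7 and Ccl12 had r = 0.706 (rho = 0.717), and 0.941 without the same libraries. Ccl8 and Ccr3 had r = 0.743 (rho = 0.767, 0.796 without MR1 and MXL12), and Ccl2 and Ccl12 r = 0.729 (rho = 0.767, 0.655 without MXL3_4 and MXL_3). The lowest values were those of Ccl24 and Ccr1 (r = 0.032, rho = 0.117) and of the receptors Ccr1 and Ccr3 (r = 0.125, rho = 0.15). Without MXL12 these were 0.368 and 0.419, so the low r values depend on this library. Without the libraries farthest out they were -0.053 (MXL_3 and MR3_4) and 0.379 (MXL12 and MXL1). Ccl12 and Ccr1 went from r = 0.342 to -0.28 without MXL3_4 and MXL1. Ccl2 and Ccr1 went from r = 0.235 to -0.112 without MXL3_4 and MXL_3.

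**Figure D4:**
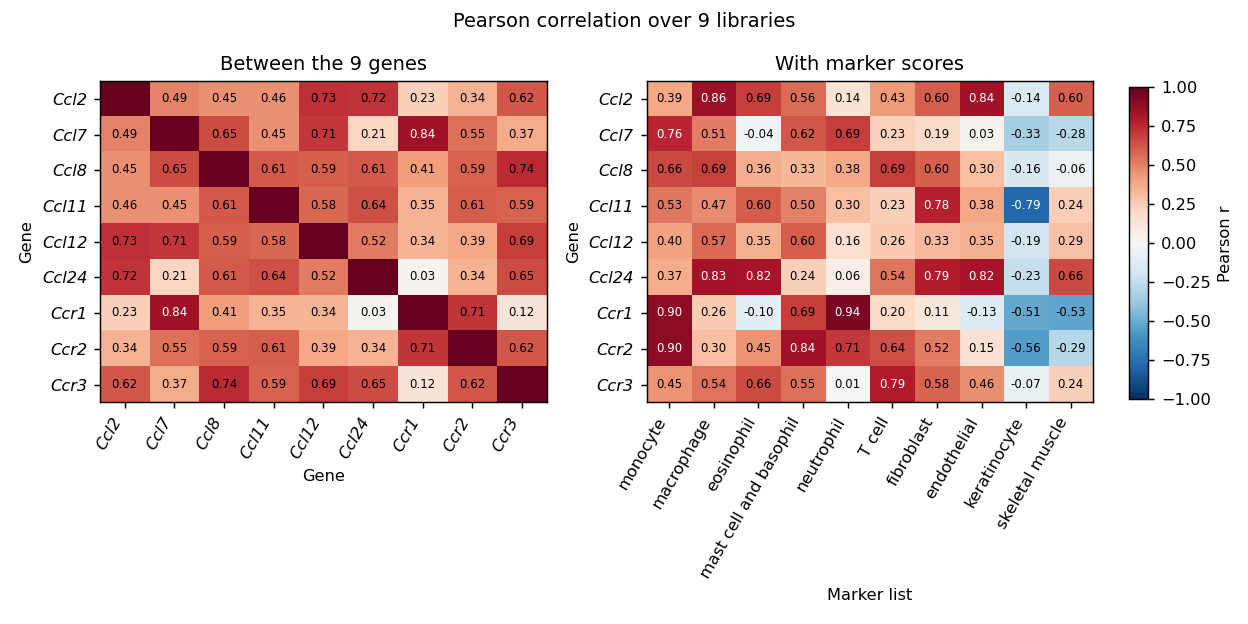
Pearson correlations over 9 libraries of log2(CPM + 0.5), between the 9 genes (left) and between each gene and the scores of 10 marker lists (right), with red above 0 and blue below. All 36 pairs of genes are above 0, from 0.03 to 0.84, and Ccr1 is closest to the neutrophil score at 0.94.

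Levels of the 9 genes were also set beside markers of the cells that skin can hold, each list scored as the mean log2(CPM + 0.5) of its genes in a library. In all, 90 such correlations were computed, again as descriptions over 9 libraries. Ccr1 was closest to the neutrophil score (r = 0.944, rho = 0.95, and 0.785 without MXL12 and MR4_5) and also followed the monocyte score (r = 0.896, rho = 0.7, and 0.812 without MXL12 and MR3). Ccr2 followed the monocyte score (r = 0.895, rho = 0.933, and 0.871 without MXL12 and MR3). It was also near the mast cell and basophil score (r = 0.841, rho = 0.867, and 0.725 without MR3 and MXL_3). With the neutrophil score Ccr2 had r = 0.707 (rho = 0.783, and 0.782 without MXL12 and MR4_5). Ccl2 and Ccl24 were closest to the macrophage score, at r = 0.861 (rho = 0.85) and r = 0.834 (rho = 0.733), which were 0.866 and 0.925 without MXL3_4 and MR5. Both were also near the endothelial score, with r = 0.837 for Ccl2 (rho = 0.8, and 0.733 without MXL_3 and MXL3_4) and r = 0.824 for Ccl24 (rho = 0.633, and 0.798 without these libraries). Ccl24 was as near to the eosinophil score (r = 0.825, rho = 0.6, and 0.679 without MXL_3 and MR1). That score takes in all 8 genes of its list, also Epx, Prg3, Ear1 and Ear6, which did not pass the filter on low counts. Correlations with it therefore rest in part on genes with few or no reads. Ccl11 was closest to the fibroblast score (r = 0.778, rho = 0.817), which was 0.355 without MXL_3 and MR4_5 and so rests on these libraries. With the same score Ccl24 had a higher r of 0.791 (rho = 0.7), which was 0.738 without these libraries. Ccl11 ran against the keratinocyte score (r = -0.785, rho = -0.8, and -0.66 without MXL_3 and MXL12). Ccr3 was closest to the T cell score (r = 0.792, rho = 0.783, and 0.541 without MR1 and MR3), above its value with the eosinophil score (r = 0.656, rho = 0.65, and 0.754 without MXL_3 and MR1).

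**Figure D5:**
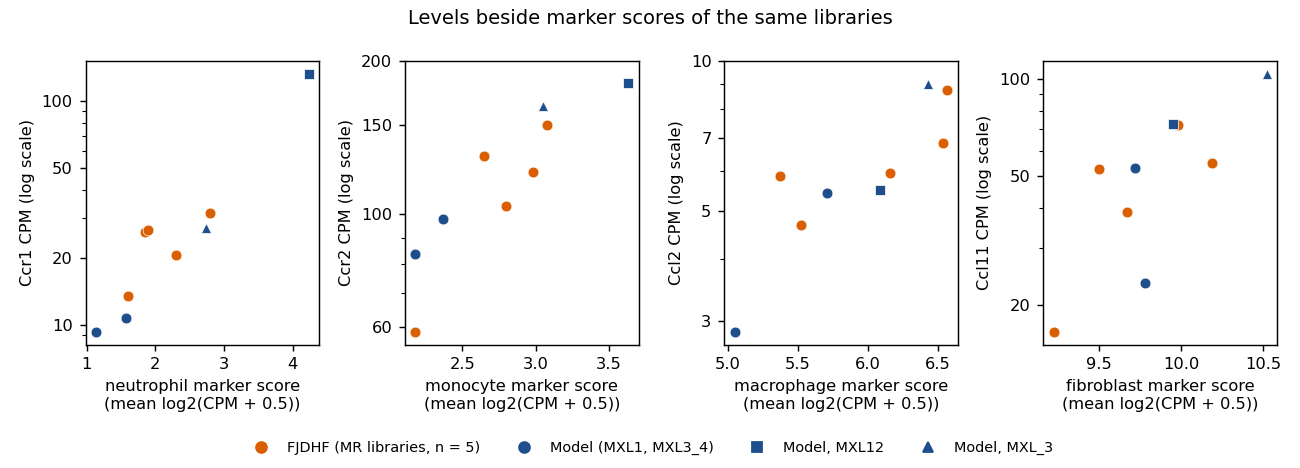
CPM of Ccr1, Ccr2, Ccl2 and Ccl11 on log axes against the neutrophil, monocyte, macrophage and fibroblast marker scores, with 1 point per library of the FJDHF group (n = 5) and the Model group (n = 4). Ccr1 and the neutrophil score are highest in MXL12 (132 CPM), while Ccr2 follows the monocyte score across libraries of both groups (r = 0.895).

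The eosinophil markers themselves differed in level. Ear2 was at 2.62 to 16.3 CPM in the FJDHF group and 6.98 to 28.0 CPM in the Model group. For Alox15 the ranges were 5.15 to 17.4 CPM and 3.3 to 9.85 CPM, and for Siglecf 1.32 to 3.67 CPM and 0.987 to 2.35 CPM. Of 8 genes, only Siglecf, Prg2, Ear2 and Alox15 passed the filter on low counts. The granule genes Epx, Prg3 and Ear1 had 0 counts in all 5 FJDHF libraries, which allows up to 0.0413 CPM. In the Model libraries they had 0 to 19, 0 to 9 and 0 to 32 counts. Their exact permutation p were 0.167, 0.167 and 0.444. Ear6 had at most 32 counts in any library. Prg2, the major basic protein of eosinophil granules, was at 0.151 to 0.386 CPM in the FJDHF group and 0.238 to 3.02 CPM in the Model group, highest in MXL_3 (log2 fold change -1.85, SE 0.78, unadjusted p = 0.0381, adjusted p = 1.0, exact permutation p = 0.175). Siglecf, a surface lectin of eosinophils, and Alox15 had log2 fold changes of 0.56 (SE 0.43) and 0.72 (SE 0.46) and Ear2 of -0.80 (SE 0.55), so that 2 of the 4 tested genes were higher and 2 lower, with a median of -0.12. The summed eosinophil list was 9.88 to 37.8 CPM in the FJDHF group and 12.4 to 44.3 CPM in the Model group. MXL_3 had the highest eosinophil score, which takes in the genes under the filter, and MXL_3 was also the highest library for Ccl2, Ccl11 and Ccl24. The skeletal muscle, fibroblast and endothelial scores were highest in MXL_3 as well, at 10.37, 10.52 and 5.71. In the same library the keratinocyte score was lowest, at 7.77. The part of these scores in the chemokine values of MXL_3 was not tested.

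For the monocyte markers, 0 of 8 genes passed an unadjusted p of 0.05, with a median log2 fold change of -0.16 and summed levels of 62.2 to 114 CPM in the FJDHF group and 50.8 to 140 CPM in the Model group. The macrophage list had 0 of 14 genes past it, with 12 higher and 2 lower and a median of 0.17. The mast cell and basophil list (10 genes) and the T cell list (10 genes) had 0 genes past it, with medians of 0.00 and 0.03. All 12 neutrophil genes had negative values (median -1.02), and Trem1, a receptor that amplifies myeloid responses, passed the unadjusted p (log2 fold change -4.08, SE 1.66, p = 0.0335, exact permutation p = 0.778, 85.2 CPM in the highest library, MXL12). Without MXL12 the neutrophil list held 6 higher and 6 lower genes, 0 past the unadjusted p, with a median of 0.25. Among 10 endothelial and 10 skeletal muscle genes, 0 passed, with medians of -0.12 and -0.22, and the muscle median was 1.22 without MXL_3 and -0.59 without MXL12.

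The labelled tissue was seen in every library, where the summed keratinocyte markers were 4250 to 19200 CPM and the fibroblast markers 19100 to 47300 CPM. Over all tested genes, 1.57% had an unadjusted p under 0.05 in edgeR in either direction. The keratinocyte list had a median log2 fold change of 0.45. In this list 4 of 10 genes were higher in the FJDHF group at such a p and 0 lower. These were the keratins Krt1 (log2 fold change 1.48, SE 0.41) and Krt10 (1.23, SE 0.39), the barrier protein gene Flg (1.36, SE 0.40) and the envelope protein gene Ivl (0.70, SE 0.24). Their unadjusted p in edgeR were 0.00446, 0.00996, 0.00613 and 0.0159 and their exact permutation p 0.0238, 0.0238, 0.0238 and 0.00794, with an adjusted p of 1.0 for each. In the fibroblast list Col3a1, a collagen chain, was lower (-0.57, SE 0.25, unadjusted p = 0.0416, adjusted p = 1.0), with a list median of -0.41. Scores of both lists overlapped between the groups, at 8.83 to 9.52 and 7.77 to 9.53 for keratinocytes and 9.23 to 10.19 and 9.72 to 10.52 for fibroblasts in the FJDHF and Model groups.

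Other ligands and receptors of the same system did not pass the test either. Of 12 genes, 11 were tested (Ccl26 had no row), 0 passed an unadjusted p of 0.05, 2 were higher and 9 lower, and the median log2 fold change was -0.27. Ccl3 and Ccl4, inflammatory ligands of Ccr1, had log2 fold changes of -1.20 (SE 1.27) and -1.12 (SE 1.36). Their highest library was MXL12, at 39.6 and 11.2 CPM, and the highest FJDHF values were 17.1 and 5.38 CPM. Group medians were 1.82 CPM (FJDHF) and 1.71 CPM (Model) for Ccl3 and 0.496 and 0.509 CPM for Ccl4. Ccl5, a T cell and platelet product, had a value of -0.26 (SE 0.79). The mouse myeloid ligands Ccl6 and Ccl9, which bind Ccr1, were at 0.05 (SE 0.51) and -0.27 (SE 0.48), and Ccl28, an epithelial ligand of Ccr3, at -0.46 (SE 0.42). Among the atypical receptors, which bind chemokines without the usual signal, Ackr1 was at 0.17 (SE 0.39), Ackr2 at -0.16 (SE 0.47), Ackr4 at -0.34 (SE 0.33) and Ccrl2 at -0.39 (SE 0.34). Without MXL12 the list held 6 higher and 5 lower genes with a median of 0.01.

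Of the cytokines and receptors known to induce these ligands, 1 passed an unadjusted p of 0.05. Among the type 2 inducers, 9 of 12 were tested, Il3 had no row, and Il5 and Il13 stayed under the filter with at most 24 and 20 counts in a library. In that list Il33, an epithelial alarm cytokine, was lower in the FJDHF group at an unadjusted p of 0.0496 (log2 fold change -1.37, SE 0.62, adjusted p = 1.0, exact permutation p = 0.405), with 276 CPM in MXL12 and 28.9 to 48.3 CPM in the FJDHF group. Without MXL12 the list had 0 genes past the unadjusted p in either direction. Il4, the cytokine that drives eotaxin in skin cells, was at 0.617 to 1.81 CPM in the FJDHF group and 0.671 to 1.78 CPM in the Model group (log2 fold change 0.02, SE 0.43). Of 13 innate inducers 0 passed, with a median of -0.02. Without MXL12, 1.78% of all tested genes had an unadjusted p under 0.05 in edgeR in either direction. Of the 13 innate inducers 2 were then higher at such a p and 0 lower. These were Il1b, whose log2 fold change in edgeR went from -3.36 (SE 1.60, unadjusted p = 0.0608) with all libraries to 2.06 (SE 0.87, unadjusted p = 0.0411, adjusted p = 1.0), and Il1a, from -0.08 (SE 0.46) to 0.70 (SE 0.31, unadjusted p = 0.0478, adjusted p = 1.0).

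For each of the 9 genes, the 3 genes most like it were taken by the Pearson correlation of log2(CPM + 0.5) over the 9 libraries, among 15715 tested genes with a mean of at least 1 CPM. They were Ms4a8a, Trim67 and Apbb2 for Ccl2 (r = 0.949, 0.945 and 0.943), Gpr176, Ms4a4a and Ms4a6d for Ccl7 (r = 0.942, 0.938 and 0.927), and Iqgap2, Gm5431 and Gm45338 for Ccl8 (r = 0.946, 0.927 and 0.918). Ccl12 had Aoah, Tslp and Htr2a (r = 0.912, 0.911 and 0.903), and only 3 genes reached 0.9 with it, the fewest of the 9. The eotaxin Ccl11 had Ctso, Ntrk2 and Antxr2 (r = 0.983, 0.974 and 0.973) among 143 genes at or above 0.9, the most of the 9, and Ccl24 had Aldh7a1, Ctsz and C1rl (r = 0.979, 0.976 and 0.970). Ccr1 was most like Clec4d, a lectin receptor of myeloid cells, at r = 0.992 with the same rank order in all 9 libraries, and Clec4d ranged from 1.61 to 140 CPM. Akr1b8 and Timp1 followed Ccr1 at r = 0.988 and 0.980. Ccr2 had Tlr3, Trim34a and Sla (r = 0.978, 0.969 and 0.960), and Ccr3 had Snhg14, Cd2 and Anxa4 (r = 0.945, 0.943 and 0.933). These values are the highest of many comparisons over few libraries.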

How the data were processed

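Per the study's methods, poly(A) RNA from mouse back skin was made into strand-specific libraries for paired-end sequencing. The authors deposited whole-number read counts per gene without normalization and FPKM values, which the authors scaled for gene length and depth. The submitters' processing notes name HISAT, StringTie, DESeq2 and mm10, and whether strand was used in counting is not given in the sources used here. A further 9 count columns in the FPKM table repeat the count table and were not used. Comparisons of the 36 pairs of libraries found no repeated library (chi-square per degree of freedom at least 135.2).

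The groups were compared on the counts with edgeR 4.0.16 in R 4.3.3 (quasi-likelihood test after filterByExpr and TMM, no covariate). A gene was called where its adjusted p was under 0.05 and its fold change 2 or more, the thresholds of the study's methods. Levels were set on log2(CPM + 0.5), with two-sided exact permutation tests in Python 3.11.15. Alternatives were DESeq2 1.42.0 (its size factors and its Wald test), limma 3.58.1 on log2(FPKM + 1), a replicate block, a filter that asks for 10 counts in each library, no such filter, each library left out, a pseudocount of 0.1, the authors' FPKM in place of CPM, and ranks. The steps were tested on simulated data. Correlations used Pearson's r and Spearman's rho (scipy 1.17.1), and figures used matplotlib 3.10.9.

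Genes named are the 9 members, the 3 most correlated genes of each, the genes of the other ligands and receptors (1 of them is not reported here), and genes of the remaining lists (inducers and cell type markers) with an unadjusted p under 0.05. Il1a, Il1b, Il4, Il5, Il13, Il3, Siglecf, Ear2, Alox15, Epx, Prg3, Ear1, Ear6, Ngp, Camp, Ltf and S100a9 were named outside this rule after their values were seen. The members, lists and tests were chosen with earlier results of these data known. Positions are those of the deposited table, equal to GENCODE M21 on GRCm38 for all 9 genes. Protein sequences were not used here.

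Whether the replicate numbers in the column codes pair the libraries is not given by the labels and was not settled here. Deviations from the group means over 2000 genes correlated at 0.333 for MXL1 and MR1, -0.143 for MXL3_4 and MR3_4 and 0.0645 for MXL_3 and MR3. Among the FJDHF libraries, the one with the same number ranked 2, 4 and 2 for these Model libraries. So few pairs can neither show nor exclude a pairing.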

Additional observations from a re-analysis of the deposited data

Results flagged for a closer look

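In groups of 4 or 5 libraries, the gap between the highest or lowest library and its neighbour was compared with the range of the group. Of 18 groups (9 genes in 2 groups), 2 had a gap larger than Dixon's 95% limit, where chance alone gives about 1 in 20, or 0.9 here. In the Model group Ccl24 was at 9.41 CPM in MXL_3 and at 2.05 to 2.81 CPM in MXL1, MXL12 and MXL3_4, a gap of 0.896 of the range. Ccr1 was at 132 CPM in MXL12 and at 9.34 to 27.0 CPM in the other Model libraries, a gap of 0.856 of the range. Without MXL12 the edgeR log2 fold change of Ccr1 was 0.59, and without MXL_3 that of Ccl24 was 1.00, in place of -0.92 and 0.26. Neither passed the test with all libraries or without the library named here.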

How the results depend on the processing

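With DESeq2's size factors, limma on log2(FPKM + 1), a filter that asks for 10 counts in each library, no such filter, a replicate block and each library left out in turn, the number of genes called stayed at 0, and with DESeq2's Wald test it was 2, neither of the 9. The number of members at an unadjusted p under 0.05 was 0, except that it was 1 without MXL12 (Ccl7), a range of 0 to 1 with each library left out. Of all genes tested without MXL12, 1.78% had such a p in edgeR. Median log2 fold changes of the members were -0.05 to 0.45 with each library left out, and 0.55 with the replicate block (0.002 over all tested genes). Whether numbers shared by the codes pair the libraries was not settled. Under the replicate block the smallest unadjusted p of a member in edgeR was 0.0591, for Ccl7. In that fit 8 of 9 members were higher, and Ccl11 turned to 0.11 and Ccr1 to 0.50 (log2). The cause of these turns was not tested. Over the alternatives other than left-out libraries, 3 of 81 values turned sign, the third being Ccr1 on ranks, where the mean rank was 0.45 higher in the FJDHF group. With single libraries left out, log2 fold changes ran from -0.052 to 0.48 for Ccl2, -0.12 to 0.71 for Ccl7, -0.061 to 0.45 for Ccl8, -0.077 to 1.00 for Ccl24 and -1.26 to 0.59 for Ccr1, and differences in mean log2(CPM + 0.5) from -0.039 to 0.46 for Ccl2, -0.045 to 0.36 for Ccl8, -0.012 to 0.67 for Ccl24, -0.57 to 0.68 for Ccr1 and -0.40 to 0.007 for Ccr2. The remaining values kept their sign with each library left out. Depth was not a limit, since the lowest member count was 119, but the 95% intervals of fold change reached 1.37 or more upward and 0.874 or less downward for every member, so changes inside these intervals could not be told from 0 with 9 libraries.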
